A study of Mus musculus with 14 samples.

Results

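Alpha-defensins (cryptdins in the mouse) are small antimicrobial peptides that Paneth cells, the granule-bearing cells of the crypt base, store and release into the crypt lumen. They are made as precursors that the protease MMP7 cuts into active peptides in the mouse. Their genes lie side by side in many near-identical copies, and Paneth cells are known to be more frequent toward the ileum. Levels of 7 of these genes, Defa20, Defa21, Defa22, Defa24, Gm15284, Gm15308 and Gm15315, were described across ileum and jejunum. The 7 genes, of 36401 in the files, were selected on their levels in ileum and jejunum in these same libraries, and found by symbol. RefSeq gives Gm15284 the name Defa30, Gm15308 the name Defa32 and Gm15315 the name Defa34. All 7 passed the filter on low counts, as did 14750 genes in all.

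RNA was sequenced from the small intestine of C57Bl6 mice, given in the labels as male and 6 to 12 weeks old. Ileal tissue was taken 5 to 8 cm from the cecum and jejunal tissue 5 to 8 cm from the pylorus. From each region came cells sorted as CD44+, CD24lo and CD166+ (CD166, 2 libraries), cells selected by the stem cell receptor LGR5 (LGR5, 2 libraries), and crypt cells (crypt, 3 libraries), 14 libraries in all. All groups carried the same strain and no treatment is given for any. Sorted cells went into lysis buffer at once, although the labels also describe a culture of sorted cells, and they name neither an LGR5 reporter nor separate mice for the replicates. P-values therefore measure the spread between these libraries, which may be technical.

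Total counts ran from 6295828 to 20380369 per library. The library labelled ileum crypt 3 went against its label: Fabp6, the ileal bile acid binding protein, had 25.8 TMM-normalised CPM (counts scaled to library size by edgeR) there and 2688 and 1987 CPM in ileum crypt 1 and 2. It lay close to jejunum crypt 1, where Fabp6 had 25.1 CPM, with a root mean square difference of 0.54 on the log2 CPM scale over all tested genes. Gata4, a transcription factor of the upper small intestine, had 233 CPM in this library, against 229 CPM in jejunum crypt 1. Over all tested genes, jejunum crypt 1 lay as near to jejunum crypt 3, with a root mean square difference of 0.54. Xist was high in ileum crypt 1 (1675 CPM), in jejunum crypt 2 (1310 CPM) and in all sorted libraries (201 to 1361 CPM) but at most 3.12 CPM elsewhere, although all labels say male. Differences and counts that rest on crypt libraries are therefore also given without the libraries labelled ileum crypt 3 and jejunum crypt 1. This exclusion does not make Xist alike between sorted and crypt libraries. Differences of sorted against crypt cells cannot be fully told apart from whatever sets the Xist-low crypt libraries apart.

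The upstream sequences show how alike the genes are, and a pair of promoter types. RefSeq promoters (GRCm38.p6) were at hand for 5 of the 7 genes, and only bases before the annotated start are printed. Capitals mark TATAAA and any match to CTTTGAA, its variant CTTTGAT, its variant CTTTGTA or its variant CTTTGTT, letters that TCF factors of the Wnt pathway are known to bind. Both strands were searched, so that ATCAAAG is CTTTGAT read on the other strand. Defa21 lies at chr8:21025295-21025544, Defa20 at chr8:21509008-21509257 and Gm15284 at chr8:21134400-21134641, all on the plus strand.
Defa21: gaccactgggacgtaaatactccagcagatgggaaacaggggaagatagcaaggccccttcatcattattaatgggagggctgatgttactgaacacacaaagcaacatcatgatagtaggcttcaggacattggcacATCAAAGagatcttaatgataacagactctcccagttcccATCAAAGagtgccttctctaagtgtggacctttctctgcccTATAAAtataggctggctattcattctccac
Defa20: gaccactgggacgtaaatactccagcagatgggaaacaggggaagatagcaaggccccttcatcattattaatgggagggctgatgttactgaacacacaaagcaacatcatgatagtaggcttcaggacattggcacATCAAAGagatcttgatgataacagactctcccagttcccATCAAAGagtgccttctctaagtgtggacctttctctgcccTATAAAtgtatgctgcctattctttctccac
Gm15284: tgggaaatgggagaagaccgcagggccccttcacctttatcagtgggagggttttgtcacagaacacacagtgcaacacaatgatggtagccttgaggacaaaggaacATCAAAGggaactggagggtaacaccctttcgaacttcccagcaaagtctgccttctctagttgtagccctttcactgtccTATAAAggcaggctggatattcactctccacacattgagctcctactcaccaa

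The 250 bases before the start were 100.0% identical between Defa21 and Defa22, and Defa20 matched Gm15308 at all 248 aligned bases. Defa20 and Defa21 differed at 5 of 250 bases. Gm15284 was 77.3% identical to Defa21 and 76.8% identical to Defa20 over 220 aligned bases. The CTTTGAT letters occurred at 2 sites before Defa20, Defa21, Defa22 and Gm15308 and at 1 site before Gm15284, and each of these genes had 1 TATAAA. Of 32851 promoters of the same length, 14.8% held one of the TCF motifs and 12.4% held TATAAA. These are matches of letters, and no binding was measured.

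The transcripts were also near copies of each other, which limits how far reads of 50 bases can be told apart. In the GENCODE M21 transcripts, Defa20 and Gm15308 differed at 1 of 425 bases, A343G, in the 3' untranslated part (positions count from 1 at the transcript's 5' end, Defa20 base first). Defa21 and Defa22 differed at 2 of 418 aligned bases, both in the coding part, T157G and T247A (Defa21 base first), and Defa22 is 1 base longer. These are the only aligned bases that tell reads of Defa21 and Defa22 apart, shown in capitals with their flanks.
Defa21 at base 157: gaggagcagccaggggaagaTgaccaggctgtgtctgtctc
Defa22 at base 157: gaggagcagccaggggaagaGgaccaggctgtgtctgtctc
Defa21 at base 247: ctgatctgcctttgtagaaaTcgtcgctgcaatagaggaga
Defa22 at base 247: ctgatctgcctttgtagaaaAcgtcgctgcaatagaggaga

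Of the 376 windows of 50 bases in Defa20, 326 (86.7%) occurred without a mismatch in Gm15308, and none was free of a match in some other gene. Defa21 shared 269 of its 369 windows with Defa22. Defa24 shared 98 of 370 windows with Gm15284, to which it was 98.2% identical, and 71.9% of its windows occurred in no other gene. Neither Defa21 nor Defa22 shared any window with Defa24, Gm15284 or Defa20. Among the members, Gm15315 shared 8 of its 326 windows with Defa22 and none with the others. Over all genes, however, 274 windows of Gm15315 (84.0%) occurred in some other gene, Gm14850 and Gm10104 among them. For Gm15284 it was 183 of 349 windows (52.4%). How the authors assigned reads that match several genes is not given in the sources used here. The values of Defa20 against Gm15308, and of Defa21 against Defa22, are therefore uncertain as single genes. Those of Gm15315, and in part those of Gm15284, are uncertain for the same reason.

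**Figure D1:**
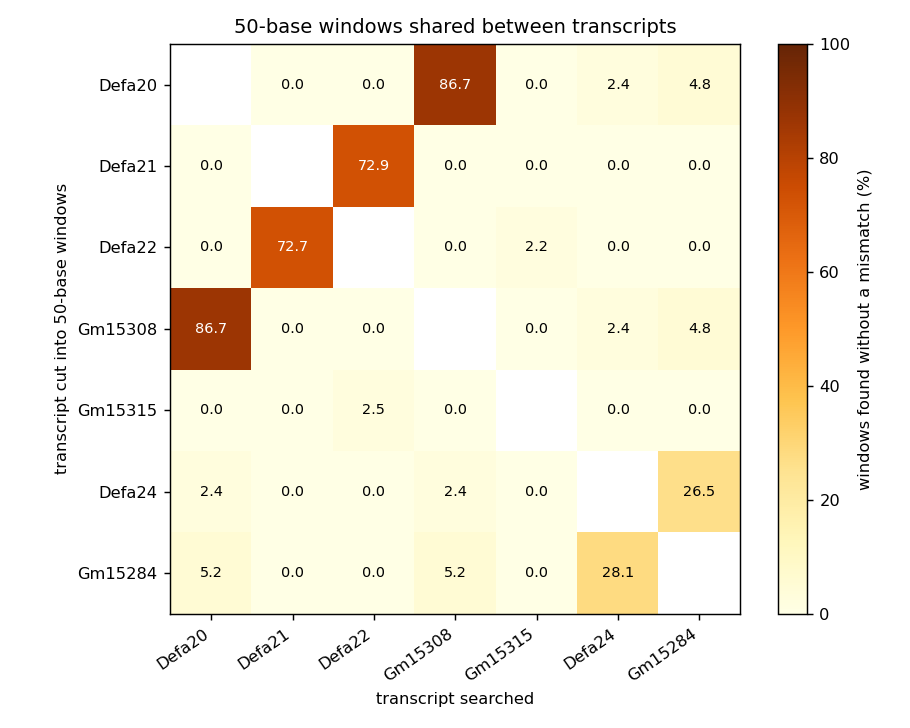
Share of the 50-base windows of each transcript (rows) found without a mismatch in another transcript (columns), in percent, from GENCODE M21. The largest shares are 86.7% between Defa20 and Gm15308 and 72.9% of Defa21 in Defa22; Defa24 and Gm15284 share 26.5% and 28.1%.

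High levels in ileum and low ones in jejunum were seen for 5 of the genes. Defa21 had 3161 and 3343 CPM in ileum CD166 libraries, 617 and 362 CPM in ileum LGR5 libraries, and 2670, 2568 and 313 CPM in ileum crypt libraries. In jejunum it had 59.6 and 154 CPM in CD166 libraries, 19.2 and 32.4 CPM in LGR5 libraries, and 385, 26.1 and 15.6 CPM in crypt libraries. Every ileal CD166 and LGR5 library lay above its jejunal counterparts, and the crypt groups overlapped only through the library labelled ileum crypt 3, at 313 CPM, which lay below jejunum crypt 1, at 385 CPM. The ileum minus jejunum difference over the 3 populations was 4.29 ± 0.81 on the log2 scale (SE), and 5.39 ± 0.33 without those 2 libraries. These differences are among the values that chose the genes, so they are given as a description with no test.

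Defa22, whose transcript is almost that of Defa21, followed it in every library. It had 2807 and 3091 CPM in ileum CD166, 520 and 365 CPM in ileum LGR5, and 2279, 2127 and 293 CPM in ileum crypt libraries. In jejunum it had 56.6 and 122 CPM in CD166, 17.5 and 22.1 CPM in LGR5, and 366, 22.1 and 14.5 CPM in crypt libraries. Its count was 68.2% to 101% of that of Defa21 over the 14 libraries, with no split between the regions. The log2 difference between ileum and jejunum was 4.35 ± 0.80, and 5.48 ± 0.26 without the 2 alike crypt libraries.

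Defa20 had 1739 and 1653 CPM in ileum CD166, 366 and 309 CPM in ileum LGR5, and 1510, 1785 and 168 CPM in ileum crypt libraries. The jejunal values were 42.1 and 89.3 CPM in CD166, 6.92 and 20.2 CPM in LGR5, and 219, 9.89 and 16.2 CPM in crypt libraries. The same pair of crypt libraries crossed, with 168 CPM in the one labelled ileum crypt 3, against 219 CPM in jejunum crypt 1. The log2 difference was 4.38 ± 0.81, and 5.43 ± 0.34 without this pair.

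Gm15308 had the widest gap between the regions among the 7 genes. It had 1065 and 1033 CPM in ileum CD166, 194 and 166 CPM in ileum LGR5, and 815, 939 and 25.7 CPM in ileum crypt libraries. In jejunum it had 7.3 and 11.5 CPM in CD166, 1.79 and 3.69 CPM in LGR5, and 24.8, 3.24 and 2.56 CPM in crypt libraries. The log2 difference was 6.22 ± 0.86, which is 74.3-fold, and 7.02 ± 0.23 without the libraries labelled ileum crypt 3 and jejunum crypt 1. Although its transcript differs from that of Defa20 at a single base, its count was 52.6% to 62.5% of that of Defa20 in 6 ileal libraries and 12.9% to 31.9% in 6 jejunal ones, with 15.3% in the library labelled ileum crypt 3, against 11.3% in jejunum crypt 1.

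Gm15315 was the lowest of the 7 genes in ileum. It had 105 and 76.3 CPM in ileum CD166, 17.5 and 28.1 CPM in ileum LGR5, and 68.6, 119 and 8.81 CPM in ileum crypt libraries. In jejunum it had 11.4 and 26.1 CPM in CD166, 1.55 and 4.59 CPM in LGR5, and 22.6, 3.42 and 2.83 CPM in crypt libraries. The log2 difference was 2.62 ± 0.63, and 3.35 ± 0.32 without the 2 alike libraries. It is the member just inside the ileum-high group, and Defa24 is the one just outside it.

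Defa24 and Gm15284 were abundant in both regions. Defa24 had 13782 and 15091 CPM in ileum CD166, 2589 and 2742 CPM in ileum LGR5, and 9908, 11883 and 5954 CPM in ileum crypt libraries. In jejunum it had 12006 and 23582 CPM in CD166, 2255 and 3850 CPM in LGR5, and 9162, 4673 and 2448 CPM in crypt libraries. The regions overlapped in CD166 and LGR5 cells, and in crypt cells only through the 2 alike libraries. The log2 difference was 0.09 ± 0.31, and 0.37 ± 0.25 without them.

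Gm15284, whose transcript is close to that of Defa24, had 2198 and 2979 CPM in ileum CD166, 425 and 411 CPM in ileum LGR5, and 1758, 2383 and 1219 CPM in ileum crypt libraries. In jejunum it had 2518 and 4719 CPM in CD166, 523 and 803 CPM in LGR5, and 1531, 1126 and 560 CPM in crypt libraries. In LGR5 cells both ileal values were below both jejunal ones, and in CD166 cells the regions overlapped. In crypt cells they overlapped only through the same 2 libraries. The log2 difference was -0.14 ± 0.26, and 0.05 ± 0.24 without them.

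**Figure D2:**
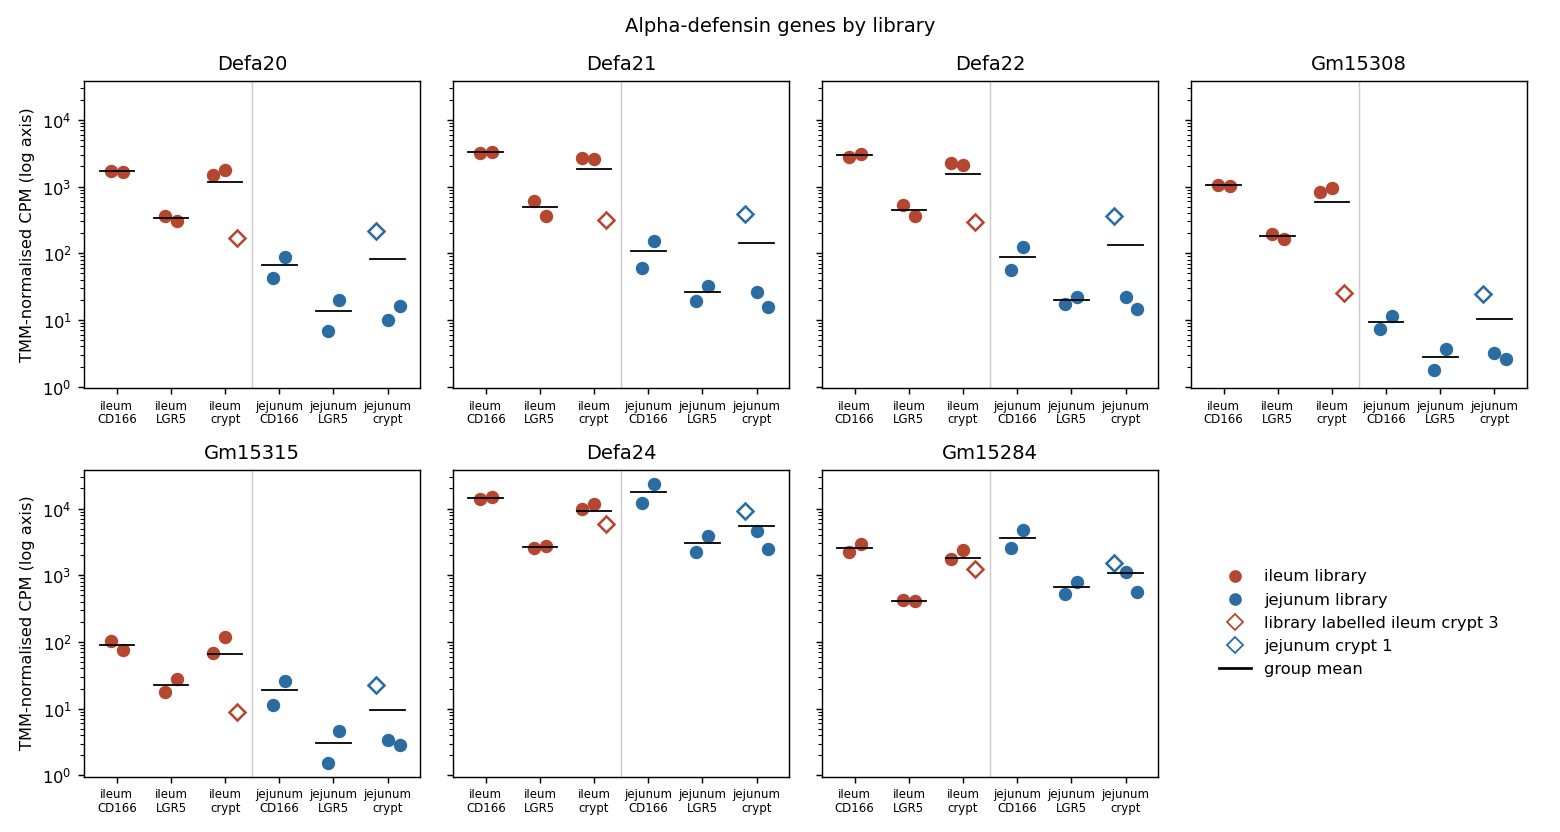
TMM-normalised CPM (log axis) of the 7 genes in each library by region and population; points are libraries, lines are group means, open diamonds mark jejunum crypt 1 and the one labelled ileum crypt 3. For Defa21 the ileal CD166 libraries sit at 3161 and 3343 CPM and the jejunal ones at 59.6 and 154 CPM, whereas Defa24 reaches 15091 CPM in ileum and 23582 CPM in jejunum.

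Within each population the region differences kept their direction for the 5 ileum-high genes. In CD166 cells the log2 differences were 6.80 ± 1.57 for Gm15308, 5.04 ± 1.49 for Defa22, 4.93 ± 1.51 for Defa21, 4.69 ± 1.48 for Defa20 and 2.27 ± 1.11 for Gm15315. In LGR5 cells they ran from 2.84 ± 1.20 for Gm15315 to 6.00 ± 1.55 for Gm15308, and in crypt cells from 2.75 ± 0.94 for Gm15315 to 5.85 ± 1.23 for Gm15308. Without the 2 alike libraries those in crypt cells ran from 4.93 ± 0.60 for Gm15315 to 8.27 ± 0.43 for Gm15308. In Defa24 the difference was -0.30 ± 0.57 in CD166, -0.20 ± 0.57 in LGR5 and 0.77 ± 0.47 in crypt cells, where it was 1.61 ± 0.45 without the 2 alike libraries. In Gm15284 it was 1.30 ± 0.43 in crypt cells without them. Of the 7 genes, 5 had every ileal library above every jejunal one in both CD166 and LGR5 cells. Of all tested genes 8.24% did so, and 2.99% were called higher in ileum at an edgeR adjusted p under 0.05; nothing is read from the members' count, since this contrast chose them.

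Ordered by mean level, Defa20, Defa21, Defa22 and Gm15308 ran from ileum CD166 through ileum crypt, ileum LGR5, jejunum crypt and jejunum CD166 to jejunum LGR5. Jejunum crypt owes its place above jejunum CD166 to jejunum crypt 1, and the ranges of these 2 groups overlapped for all 4 genes. The ranges of ileum crypt and ileum LGR5 also overlapped for all 4. Defa24 and Gm15284 ran from jejunum CD166 through ileum CD166, ileum crypt, jejunum crypt and jejunum LGR5 to ileum LGR5, and the 2 CD166 groups overlapped. Gm15315 ran from ileum CD166 through ileum crypt, ileum LGR5, jejunum CD166 and jejunum crypt to jejunum LGR5, with an overlap at every step. Per kilobase of transcript, ileum CD166 cells averaged 34456 CPM of Defa24, 7780 of Defa21, 7038 of Defa22, 6503 of Gm15284, 3991 of Defa20, 2468 of Gm15308 and 242 of Gm15315. In jejunum CD166 cells Defa24 averaged 42468 CPM per kilobase, Gm15284 9093 and Gm15308 22.2.

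The makeup of the summed counts of the 7 genes differed between the regions, while the sum itself overlapped between them when the populations were pooled. The sum held 0.467% to 2.63% of all counts in 6 ileal libraries and 0.275% to 2.83% in 6 jejunal libraries. This leaves aside the library labelled ileum crypt 3 (0.776%) with jejunum crypt 1 (1.13%). Within the sorted populations the regions overlapped. Within crypt cells they did not, with 2% and 2.19% in ileum crypt 1 and 2 and 0.518% and 0.275% in jejunum crypt 2 and 3. The 5 ileum-high genes made up 28.1% to 38.6% of the sum in the 6 ileal libraries (median 35.2%) and 1.1% to 1.75% in the 6 jejunal libraries (median 1.53%). They made up 10.1% in the library labelled ileum crypt 3, against 8.7% in jejunum crypt 1, between the other libraries of both regions. Defa24 alone made up 52.1% to 62.6% of the sum in ileum and 79.7% to 82.2% in jejunum. Defa21 stood at 13.2% to 26.9% of the Defa24 count in ileum and at 0.496% to 0.849% in jejunum, with 5.26% in the library labelled ileum crypt 3, against 4.21% in jejunum crypt 1. The transcripts are 375 to 425 bases long, so these count shares depend little on length.

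**Figure D3:**
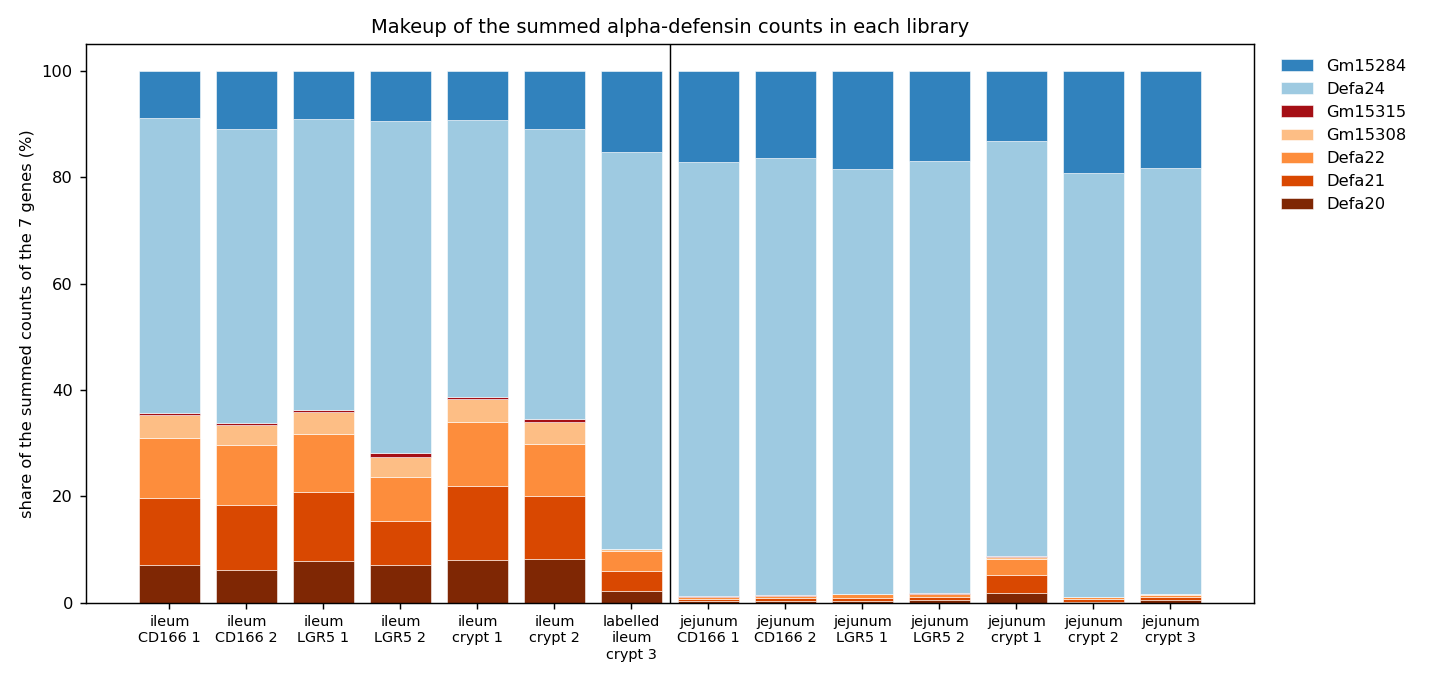
Share of each gene in the summed counts of the 7 genes, in percent, one bar per library, ileum left of the line and jejunum right of it. The 5 ileum-high genes (brown, orange and red) take 28.1% to 38.6% in the ileal libraries other than the one labelled ileum crypt 3 (10.1%), and 1.1% to 1.75% in the jejunal ones other than jejunum crypt 1 (8.7%).

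The populations were compared next. The genes were selected on their levels in ileum and jejunum, with earlier results of these data known. Their choice may therefore not be independent of the differences between populations. Both sorted populations were named as stem cells in the labels, and Paneth cells are known to carry much CD24, so a gate low in CD24 is meant to leave them out. All 7 genes had higher fitted levels in CD166 than in LGR5 cells, and Defa24 and Gm15284 passed the test. Defa24 was higher by 2.49 ± 0.43 on the log2 scale, which is 5.62-fold (edgeR adjusted p = 0.0115), and Gm15284 by 2.54 ± 0.36, which is 5.81-fold (edgeR adjusted p = 0.00425). Every CD166 library lay above every LGR5 library of its region in all 7 genes, as in 7.34% of all tested genes. The other 5 genes had differences from 2.15 to 2.45 with adjusted p from 0.344 to 0.511. Of all tested genes 1.61% were called higher in CD166 cells. The median difference was 2.39 over the 7 genes and 0.00 over all tested genes.

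Averaged over the 2 regions, CD166 cells had higher and LGR5 cells lower levels of Defa24 and Gm15284 than crypt cells. In CD166 cells Defa24 rose by 1.18 ± 0.36 (edgeR adjusted p = 0.0309) and Gm15284 by 1.14 ± 0.31 (edgeR adjusted p = 0.0163), where 13.6% of all tested genes were called higher. The other 5 genes differed by 0.12 to 0.71 with adjusted p from 0.456 to 0.927. In LGR5 cells Defa24 fell by 1.31 on the log2 scale (SE 0.38, edgeR adjusted p = 0.0249) and Gm15284 fell by 1.39 (SE 0.33, edgeR adjusted p = 0.0087), where 18.5% were called lower. The other 5 genes had differences from -2.29 to -1.57 with adjusted p from 0.0717 to 0.141. In ileum alone, CD166 minus crypt was 0.64 ± 0.51 for Defa24 and 0.53 ± 0.43 for Gm15284, neither called. In jejunum it was 1.71 ± 0.51 and 1.75 ± 0.43, both called. LGR5 minus crypt was -1.79 ± 0.56 and -2.09 ± 0.48 in ileum, where Gm15284 was called. In jejunum it was -0.83 ± 0.53 and -0.69 ± 0.45, neither called. Single libraries decided several of the calls averaged over the regions. Neither gene was called higher in CD166 than in crypt cells without ileum CD166 2 or without jejunum CD166 2 (edgeR adjusted p from 0.0672 to 0.15). Defa24 also lost that call without ileum CD166 1, ileum LGR5 2 or the library labelled ileum crypt 3 (adjusted p from 0.0506 to 0.0765). Defa24 lost its call in LGR5 against crypt cells without ileum LGR5 1, ileum LGR5 2 or jejunum LGR5 1 (adjusted p from 0.0668 to 0.106). In CD166 against LGR5 cells it lost the call without any 1 of the 4 LGR5 libraries or jejunum CD166 2 (adjusted p from 0.0565 to 0.109), while Gm15284 was called in all of these fits.

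The 2 alike crypt libraries carried most of the spread of the ileum-high genes. Without the libraries labelled ileum crypt 3 and jejunum crypt 1, all 7 genes were called higher in CD166 than in LGR5 cells, where 1.78% of tested genes were. The differences kept their size (2.14 to 2.54), and the standard errors fell to between 0.24 and 0.38, against 0.36 to 0.95 with all libraries. The count of 7 rests on leaving out both libraries. Without the one labelled ileum crypt 3 alone 2 genes were called, where 249 of 14740 tested genes were called higher. Without jejunum crypt 1 alone 2 were called, where 230 of 14737 were. All 7 were also called higher in CD166 than in crypt cells, by 0.99 to 1.36 (11.9% of tested genes), with edgeR adjusted p from 0.00678 to 0.0334. This count too rests on leaving out both libraries. Without the one labelled ileum crypt 3 alone, Gm15284 was the 1 gene called (1599 of 14740 tested genes higher). The differences there were -0.14 for Defa20, -0.05 for Defa21 and -0.09 for Defa22. Without jejunum crypt 1 alone 3 were called (2059 of 14737 tested genes higher). In LGR5 cells 6 were called lower than in crypt cells (17.7% of tested genes), and Gm15315, 2-fold lower, missed (edgeR adjusted p = 0.0814). These calls average both regions. In ileum alone CD166 minus crypt ran from -0.05 to 0.42 (edgeR adjusted p from 0.581 to 0.977). In jejunum alone it ran from 1.73 to 2.61 (edgeR adjusted p from 0.00499 to 0.0149). LGR5 minus crypt ran from -2.42 to -2.03 in ileum and from -0.35 to 0.33 in jejunum. This exclusion was chosen after the data were seen.

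**Figure D4:**
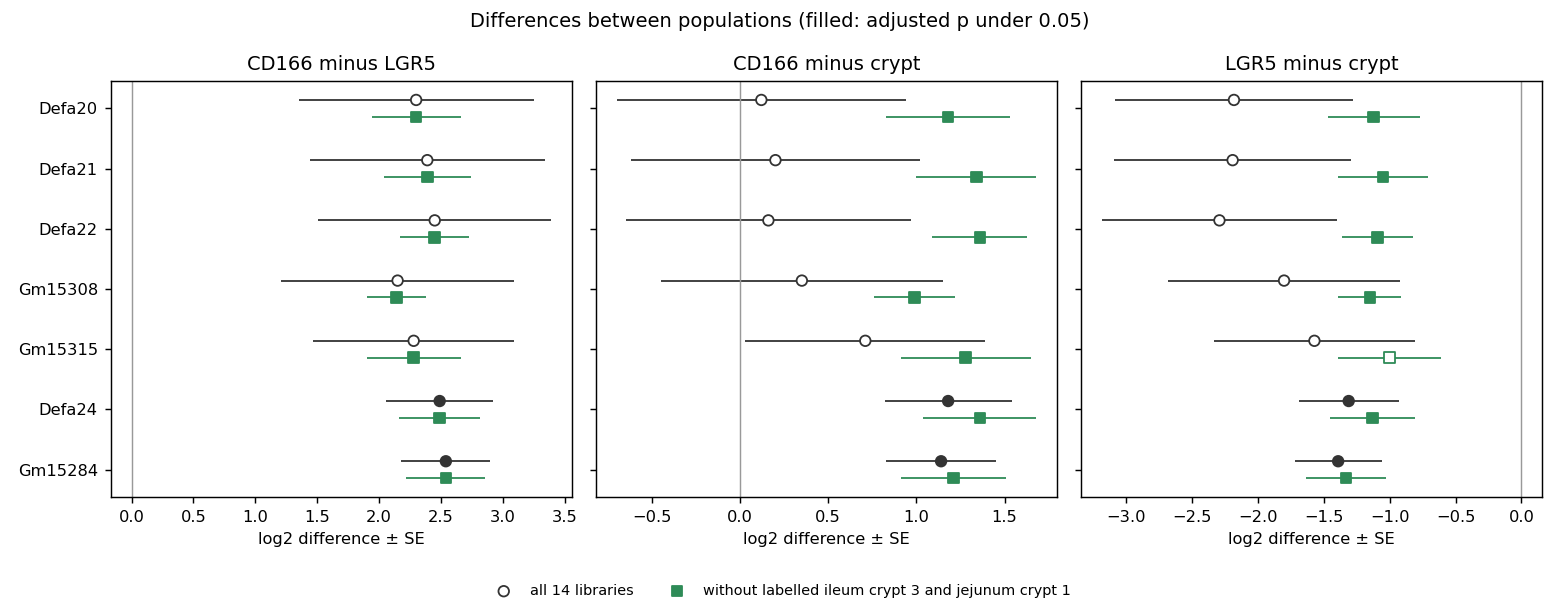
Log2 differences between populations, averaged over ileum and jejunum, with standard errors, for all 14 libraries (circles) and without the libraries labelled ileum crypt 3 and jejunum crypt 1 (squares); filled symbols have an adjusted p under 0.05. For CD166 minus crypt, Defa21 moves to 1.34 without these libraries, against 0.20 with all 14, while CD166 minus LGR5 stays at 2.39.

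No member's region difference was found to depend on the population. The joint region by population interaction called 0 of the 7 genes with edgeR (adjusted p from 0.904 to 0.989, and 0 at an unadjusted p under 0.05), and limma-voom and DESeq2, which gave a p for 6 of them, also called 0. Of all tested genes 0.0136% were called. Without the 2 alike libraries the 7 genes had adjusted p from 0.255 to 0.459, none called, with 7 at an unadjusted p under 0.05. Of all 14714 genes tested there, 1316 had an unadjusted p under 0.05, against 807 of 14750 with all 14 libraries. In ileum the CD166 minus crypt difference of Gm15284 was 0.53 ± 0.43 (edgeR adjusted p = 0.478), and in jejunum the gene rose by 1.75 ± 0.43 (edgeR adjusted p = 0.0198), but the interaction does not show these to differ.

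Some other Paneth cell transcripts also differed between the populations. The summed CPM of 5 Paneth markers in the files (Lyz1, Mmp7, Ang4, Kcnn4, Wnt3, with Mptx2 not analysed here) was 13843 to 18091 in CD166, 4244 to 4449 in LGR5 and 7882 to 19437 in crypt libraries of ileum. In jejunum it was 14287 to 22802 in CD166, 2257 to 2919 in LGR5 and 2476 to 9619 in crypt libraries. None of the 5 was at 0 throughout a group. Lyz1 made up most of the sum, with means of 13143 CPM in ileum CD166, 3431 in ileum LGR5, 16779 in jejunum CD166 and 2194 in jejunum LGR5 libraries. Lyz1, the Paneth cell lysozyme, was higher in CD166 than in LGR5 cells by 2.44 ± 0.44 (edgeR adjusted p = 0.017), and Ang4, an antimicrobial ribonuclease, by 2.54 ± 0.49 (edgeR adjusted p = 0.0218). The other 3 were not called, with differences of 2.09 ± 0.49 for Mmp7 (edgeR adjusted p = 0.0668), 1.17 ± 0.60 for Wnt3 (edgeR adjusted p = 0.602) and -0.08 ± 0.35 for Kcnn4 (edgeR adjusted p = 0.984). Markers of other cell types also differed between the populations. The summed CPM of 7 enteroendocrine markers was 815 to 1773 in CD166, 253 to 541 in LGR5 and 233 to 687 in crypt libraries of ileum, and in jejunum 3697 to 3699 in CD166, 219 to 253 in LGR5 and 209 to 768 in crypt libraries. For 4 tuft cell markers it was 217 to 553 in CD166, 173 to 524 in LGR5 and 52 to 117 in crypt libraries of ileum, and in jejunum 428 to 461 in CD166, 129 to 141 in LGR5 and 37 to 126 in crypt libraries. For 8 enterocyte markers it was 517 to 709 in CD166, 343 to 587 in LGR5 and 3992 to 14321 in crypt libraries of ileum, and in jejunum 892 to 1701 in CD166, 735 to 1190 in LGR5 and 15112 to 46648 in crypt libraries. Crypt libraries thus held more enterocyte RNA than either sorted population, and CD166 libraries more enteroendocrine RNA than LGR5 libraries. In bulk libraries more Paneth cells and more RNA of these genes per cell cannot be told apart, and the part of Paneth or other cells in the sorted fractions was not tested.

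Of a list of 25 Paneth genes other than alpha-defensins, 22 were in the files and tested. In CD166 against LGR5 cells 4 rose, Ang4, Clps, Itln1 and Lyz1, and none fell. In CD166 against crypt cells 6 rose, among them Mmp7 by 2.04 ± 0.42 (edgeR adjusted p = 0.00476), and 1 fell, where 16.5% of all tested genes were called lower. In LGR5 against crypt cells 9 fell, Lyz1, Itln1 and Ang4 among them, and 4 rose, where 13.0% of all tested genes were called higher. Without the 2 alike libraries 8 rose in CD166 against LGR5 cells and 11 in CD166 against crypt cells, where 1 fell, and in LGR5 against crypt cells 9 fell and 4 rose. The list's median was 1.25 for CD166 minus LGR5, 0.61 for CD166 minus crypt and -1.16 for LGR5 minus crypt, against 0.00, 0.02 and -0.01 over all tested genes. With each library left out in turn, the genes that rose in CD166 cells numbered 1 to 5 against LGR5 cells and 3 to 13 against crypt cells, and those that fell in LGR5 against crypt cells 3 to 10.

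Between regions the Paneth list had calls toward ileum. In ileum 6 of the 22 genes were called higher than in jejunum and none lower: Mmp7 by 1.82 ± 0.37 (edgeR adjusted p = 0.0196), Reg3g, a secreted antimicrobial lectin, by 1.94 ± 0.43 (edgeR adjusted p = 0.0256), Pla2g2a, a secreted phospholipase, by 1.56 ± 0.40 (edgeR adjusted p = 0.0465), and Copz2, Fgfrl1 and Wnt3. Lyz1 had a difference of 0.57 ± 0.33 (edgeR adjusted p = 0.422). The median of the list was 0.76. Without the 2 alike libraries 13 were called higher and 1 lower, where 4.95% of all tested genes were called higher. Leaving out any 1 of the jejunal LGR5 or CD166 libraries, or ileum CD166 2, left none called, and without jejunum crypt 1 there were 11 calls; over all single libraries left out the count of higher genes ran from 0 to 11.

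Between the regions 1 of the other alpha-defensins was called. The files hold 34 other alpha-defensin genes and pseudogenes, of which 19 passed the filter, and their median ileum minus jejunum difference was 0.66 against -0.01 over all tested genes. In ileum Gm10104 (Defa35 in RefSeq) alone was called, higher by 2.77 ± 0.54 (edgeR adjusted p = 0.0174), and 5 were called higher without the 2 alike libraries. This call was lost without any 1 of the jejunal LGR5 or CD166 libraries or ileum CD166 2. Among the most abundant of the 19, differences were 0.97 ± 0.44 for Gm14850, 0.08 ± 0.35 for Gm15292, 0.05 ± 0.29 for Defa26, -0.04 ± 0.24 for Defa17 and -0.35 ± 0.25 for Gm14851, none called. In CD166 against LGR5 cells 7 of the 19 rose, Gm14851, Defa17, Defa26 and Gm15292 among them, and none fell, with a median of 2.44. Against crypt cells 9 fell in LGR5 cells and Defa17 rose in CD166 cells, by 1.24 ± 0.28 (edgeR adjusted p = 0.00691), 1 of 19 where 13.6% of all tested genes were called higher. Without the 2 alike libraries 9 of 17 tested rose in CD166 against crypt cells (11.9% of all), 12 in CD166 against LGR5 cells, and 10 fell in LGR5 against crypt cells. With each library left out in turn, 1 to 8 rose in CD166 against crypt cells and 1 to 9 in CD166 against LGR5 cells. Those that fell in LGR5 against crypt cells numbered 3 to 14.

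The ileum-high genes did not sit together on chromosome 8. In RefSeq order Defa21 came first of the members, then Gm15284 next to Defa22, then Defa20 next to Gm15308, then Gm15315 and Defa24. Gm15284, with a difference of -0.14, is thus the direct neighbour of Defa22, with 4.35. Defa17, at -0.04, is the direct neighbour of Gm15315, at 2.62.

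**Figure D5:**
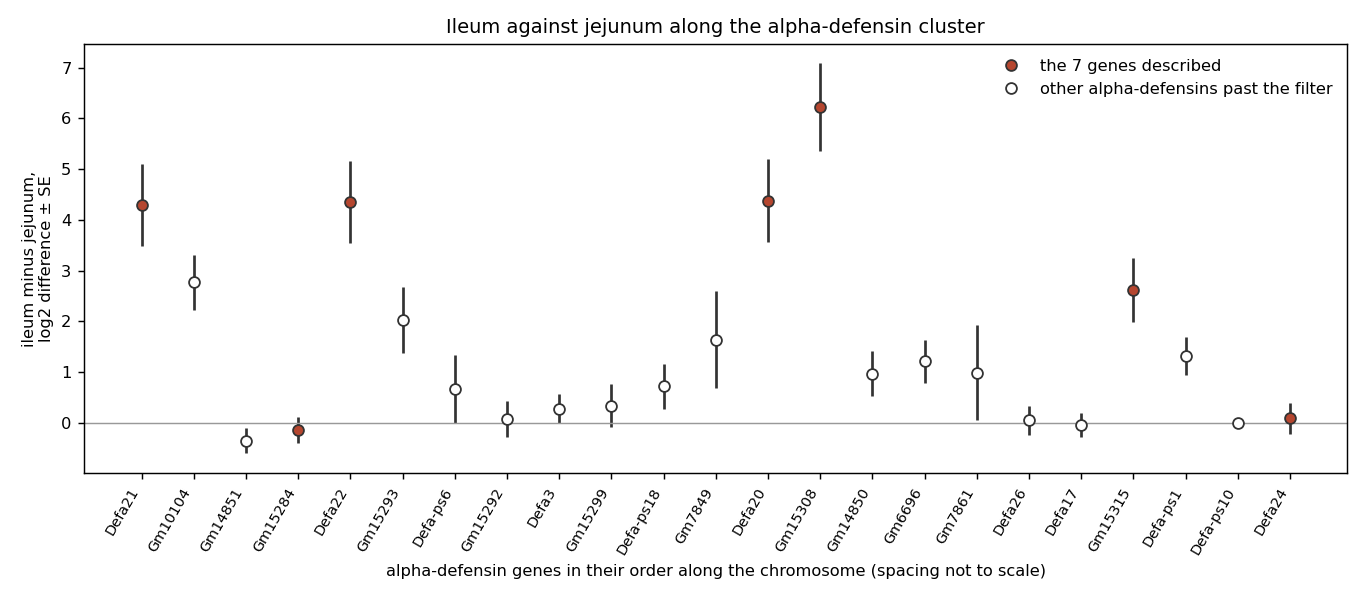
Log2 ileum minus jejunum difference with its standard error for 23 of the alpha-defensin genes that passed the filter, in their order along the chromosome (filled: the 7 genes described; open: others). Gm15308 stands highest at 6.22, and genes with differences near 0, such as Gm15284 at -0.14, lie between ileum-high ones. No error is drawn for Defa-ps10, since an error computed from its difference of 0.00 is unreliable.

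The genes most like each member across the 14 libraries were other alpha-defensins in all but one case, by the root mean square difference of log2 CPM centred on each gene's mean, among 9896 genes whose mean log2 CPM was 3 or more. Defa21 and Defa22 were nearest to each other, at 0.14. Defa20 followed at 0.38 from both, and Gm15308 was nearest to Defa20 at 0.89. Defa24 was nearest to Defa3 at 0.17, Gm15284 at 0.21 and Defa17 at 0.23, and Gm15284 to Defa24 at 0.21, Defa26 at 0.26 and Defa17 at 0.26. Gm15315 lay 0.87 from Defa-ps1 and 0.87 from Pla2g2a, which were among its 3 nearest genes. Outside the family, Lyz1 was nearest to Defa24 at 0.37, and Slc5a8, a sodium-coupled monocarboxylate transporter, to Defa21 at 1.18. These are descriptions, and shared reads contribute to likeness between near-identical transcripts to an extent that was not tested.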

How the data were processed

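Single-end 50-base reads of TruSeq libraries were sequenced on an Illumina HiSeq, per the labels' protocols. The submitters' processing notes name mm9 and DESeq; no aligner, counter or annotation is given in these sources. For each library the authors deposited expected counts per gene, not scaled and not whole for many genes. They were rounded and filtered with filterByExpr (minimum count 10, total 15) in edgeR 4.0.16 (R 4.3.3). One quasi-likelihood model held a mean per group over all 14 libraries, with TMM factors; p-values were Benjamini-Hochberg adjusted over 14750 genes and called under 0.05. Standard errors are the log2 difference divided by the square root of F. The fit was checked on simulated counts with the same spread for all genes and no aberrant libraries. That check therefore says nothing about calls that rest on single libraries.

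The members and gene lists were chosen with earlier results of these data known. All members were named, with the 6 most abundant other alpha-defensins (1 of them is not reported here), Lyz1, Mmp7, Ang4 and up to 5 called genes of the Paneth list; Gm10104, Clps and Slc5a8 were named after their values were seen. Alternatives used other size factors and filters, DESeq2 1.42.0, limma-voom (limma 3.58.1), a replicate block and each library left out. Sequences came from RefSeq and GENCODE (GRCm38), not from the files' build, so no coordinates were joined to counts. Counting error is small at these depths for all but the lowest values, and no counting interval is given.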

Additional observations from a re-analysis of the deposited data

How the results depend on the processing

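The edgeR fit of all 14 libraries called 2, 2, 2 and 0 of the 7 genes for LGR5 minus crypt, CD166 minus crypt, CD166 minus LGR5 and the interaction. DESeq2 called 5 of the 6 genes with a p for LGR5 minus crypt, where 3315 of 14750 tested genes were called lower. The replicate block called 7 lower for LGR5 minus crypt (2508 of 14750 tested genes lower) and 1 higher for CD166 minus crypt (1454 of 14750 higher). It reversed CD166 minus crypt for Defa20 (-0.37), Defa21 (-0.22), Defa22 (-0.23) and Gm15308 (-0.24). Whether replicate numbers pair the libraries is not known. Over 31 pairs with the same number, correlations of deviations ran from -0.454 to 0.378, with 8 over 0.1. These values cannot decide it, since pairs with different numbers were not compared. In groups of 2 libraries the deviations also mirror each other, so the pairs are not independent. Leaving out the libraries labelled ileum crypt 3 and jejunum crypt 1 called 6, 7 and 7. Leaving out the crypt libraries high in Xist called 1 for CD166 minus crypt, where 5622 of 14327 tested genes were called in either direction, and gave -0.02 for Defa20. Leaving out each replicate called 1 to 4 for LGR5 minus crypt, 0 to 3 for CD166 minus crypt, 1 to 2 for CD166 minus LGR5 and 0 for the interaction. In these fits CD166 minus crypt ran over -0.23 to 1.43 for Defa20, -0.24 to 1.59 for Defa21 and -0.19 to 1.61 for Defa22. The causes were not tested.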
